A study of Mus musculus with 6 samples.

Results

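Amino acid transporters of the solute carrier families Slc1, Slc3, Slc6, Slc7, Slc36, Slc38 and Slc43 were followed in whole kidney RNA-seq from a mouse model of cyclin B1 loss. Genes were taken by symbol, and the symbol pattern matched 67 of 51804 gene symbols in the deposited table. These were 7 genes of Slc1, 2 of Slc3, 22 of Slc6, 16 of Slc7, 6 of Slc36, 11 of Slc38 and 3 of Slc43. The pattern also caught 4 genes named for lying opposite a transporter (Slc7a6os, Slc6a19os, Slc36a1os and Slc36a3os), which carry a transporter's name without being members of its family, and it caught monoamine, creatine and betaine carriers of the Slc6 family. Of the 67 genes, 43 had enough counts to be tested, Slc7a6os among them, and counts of transporters below include it. The 24 others held at most 15 counts in any library, and 10 of them held none.

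The knockout group was 3 kidney libraries with the genotype Ccnb1f/f;Cdh16-Cre, and the control group was 3 kidney libraries with the genotype Ccnb1f/f. Both groups thus carry the floxed allele of Ccnb1, which encodes the cyclin that drives entry into mitosis, and the groups differ in Cre recombinase under the promoter of Cdh16, a cadherin of renal tubule epithelium. The study asked how loss of this cyclin from tubule cells bears on G2/M arrest and renal fibrosis. Whole kidney libraries cannot show in which tubule segments Ccnb1 was lost, nor whether the proximal tubule was among them. The labels state neither age, sex nor strain, nor whether each replicate came from its own animal. The p-values below therefore measure library-to-library spread, possibly only a technical one. The extraction protocol names cultured cells as well as kidney, whereas the tissue label is kidney.

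Libraries held 16061435 to 21261226 estimated counts, and the transporters made up 0.584% to 0.708% of them. Ccnb1 had 18, 15 and 11 counts in the knockout libraries and 11, 17 and 7 in the controls, which overlapped, so counts this low say nothing on whether the labels are right, and groups are named by label throughout. Proximal tubule was well represented, with the 12 markers of that segment summing to 19742 to 22238 CPM (counts scaled to library size, with TMM normalisation) in knockout libraries and 18878 to 23836 CPM in controls. Adrenal cortex, B cell and T cell markers each summed to at most 6.89 CPM in any library. Adipose tissue markers summed to 46.4 to 79.1 CPM over the 6 libraries, and red cell markers to 136 to 229 CPM. Podocyte, loop, collecting duct and vessel markers were present as well, as in whole kidney. The library control 2 stood apart from the others, as given below beside the genes it touches.

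Kidney tubules take back almost all filtered amino acids. Carriers in the brush border (apical membrane) of the proximal tubule bring amino acids in from the filtrate, mostly driven by sodium, and carriers in the basolateral membrane pass them on to the blood. Several are heterodimers of a heavy chain that brings the complex to the membrane (Slc3a1 or Slc3a2) and a light chain that transports (an Slc7 member). Loss of SLC3A1 or SLC7A9 causes cystinuria in humans, loss of SLC7A7 causes lysinuric protein intolerance, and loss of SLC6A19 causes Hartnup disorder.

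No transporter gene differed between groups beyond the threshold. In the edgeR quasi-likelihood test with adjustment over 15017 genes, 0 of 43 tested transporters had an adjusted p under 0.05, where 0.0133% of all tested genes did (1 gene higher and 1 lower in knockout libraries, 0.00666% each, neither of them a transporter). DESeq2, which called 0.0932% of all tested genes, and limma on log2(FPKM + 1) also called 0 of the transporters. At an unadjusted p under 0.05 there were 2 transporters, Slc43a1 and Slc7a1, against 3.23% of all tested genes. Of the 43, 29 had a log2 fold change (knockout over control) below 0 and 14 above, with a median of -0.06 beside -0.0051 over all tested genes. Without control 2, 17 lay below 0 and the median was 0.02. With all libraries but without Slc7a6os, 29 of 42 genes lay below 0, with a median of -0.067.

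The intervals rest on the same library-to-library spread as the p-values, possibly only a technical one. They describe differences between these whole kidney libraries and set no bound on changes between animals or within single cell types. The 95% confidence interval of the log2 fold change lay inside -1 to 1 for 38 of 43 transporters, and inside -0.5 to 0.5 for 18. Among the 18 transporters at 50 CPM or more, all 18 intervals lay inside -1 to 1. The median standard error (SE) was 0.18 for the transporters and 0.17 over all tested genes.

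**Figure D1:**
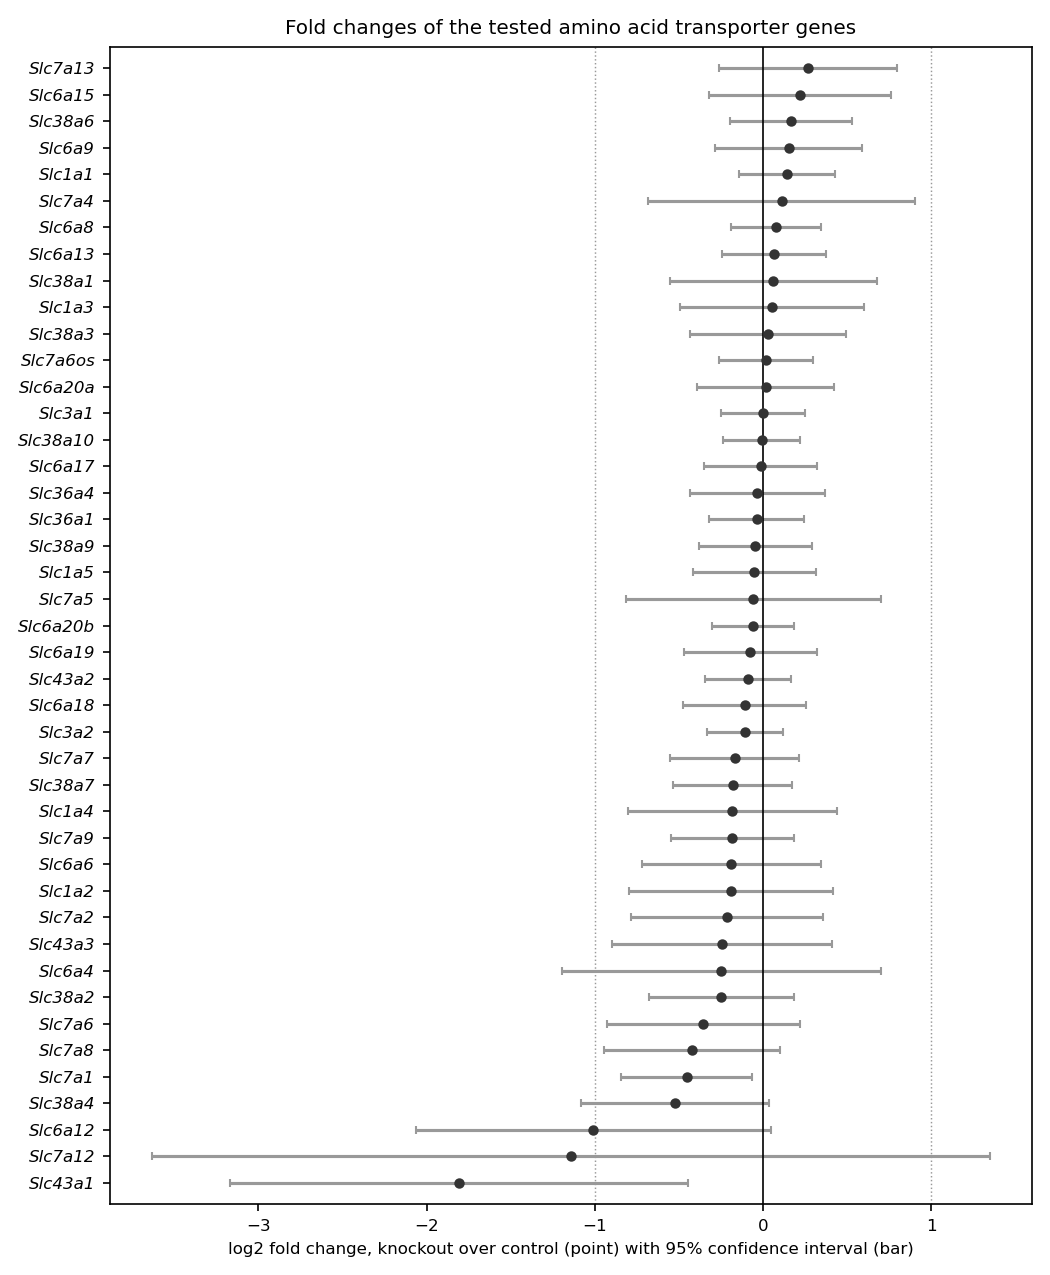
Log2 fold change of knockout over control for each of the 43 tested genes (points) with its 95% confidence interval (bars), from the edgeR fit. Dotted lines stand at -1 and 1; the intervals of Slc43a1 and Slc7a1 are the ones that do not cross 0, and the widest belongs to Slc7a12.

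Levels between genes were compared per kilobase of transcript, as FPKM summed over a gene's transcripts and averaged over the 6 libraries. The cystine and acidic amino acid carrier Slc7a13 led with 458 FPKM, followed by its heavy chain Slc3a1 with 359 FPKM and the brush border glycine and neutral amino acid carrier Slc6a18 with 252 FPKM. Slc3a2, Slc6a20b, Slc6a8, Slc6a19, Slc7a7 and Slc1a1 followed between 96.3 and 120 FPKM, and at the other end Slc43a1 averaged 0.423 FPKM. In CPM, 33 of the 43 genes differed by less than 2-fold between their highest and lowest library, while Slc7a12 differed by 29.1-fold and Slc43a1 by 12.7-fold.

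**Figure D2:**
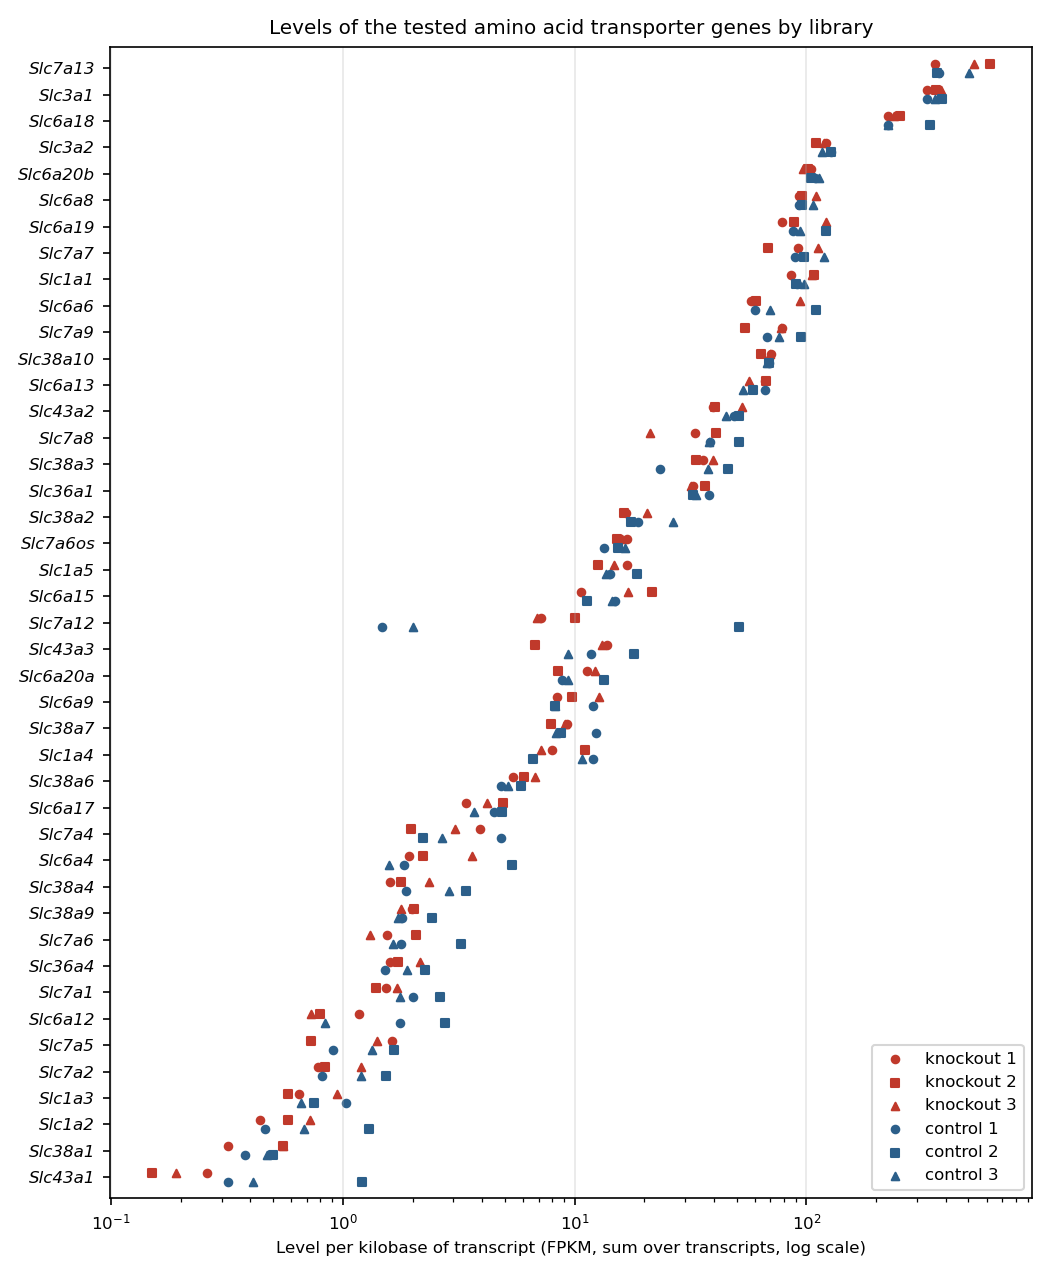
FPKM summed over transcripts (horizontal, log scale) for each tested gene in each of the 6 libraries, ordered by mean level; red is knockout, blue is control, and the symbol shape gives the replicate. Libraries lie close together for abundant genes such as Slc3a1, and for Slc7a12 control 2 lies far to the right and controls 1 and 3 to the left of the knockout libraries.

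In the brush border of the proximal tubule, 4 of 8 tested carriers had fold changes above 0 and 4 below, with a median of -0.03, and none passed the test. Without control 2, 6 lay above 0 and 2 below. Slc3a1 (ENSMUSG00000024131, chromosome 17, 85028347 to 85064243), the heavy chain rBAT, had 770, 849 and 864 CPM in knockout libraries and 791, 836 and 856 CPM in controls. The groups overlapped almost completely, and the log2 fold change was 0.00016 (SE 0.11, interval -0.25 to 0.25). The span of Prepl overlaps that of Slc3a1 on the opposite strand, and Prepl held 8.4% as many counts. The sources do not say whether counting used strand. Here and below, overlaps are of whole gene spans, and whether exons are shared was not examined.

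Slc7a13 (ENSMUSG00000041052, chromosome 4, 19818725 to 19842218), a light chain of the last, straight part of the proximal tubule, had 768, 1346 and 1112 CPM in knockout libraries and 827, 739 and 1113 CPM in controls. Knockout 2 alone lay above the control range and control 2 was lowest, and the log2 fold change was 0.27 (SE 0.23, interval -0.26 to 0.80), or 0.069 without knockout 2. Slc7a9, the light chain of the cystine and basic amino acid carrier, had 139, 96.1 and 132 CPM in knockout libraries and 124, 156 and 136 CPM in controls, with a log2 fold change of -0.18 (SE 0.16; -0.042 without knockout 2). Knockout 2 was thus highest for Slc7a13 and lowest for Slc7a9. The ratio of Slc7a13 to Slc7a9 on the FPKM scale was 4.56, 11.4 and 6.84 in knockout libraries and 5.49, 3.87 and 6.62 in controls, or 7.61 ± 3.49 against 5.33 ± 1.38 (SD, n = 3 each). The sum of these light chains over Slc3a1 was steadier, at 1.59 ± 0.274 in knockout libraries and 1.38 ± 0.211 in controls (FPKM ratio, SD, n = 3 each).

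Slc6a19, the main sodium-driven carrier of neutral amino acids, had 310, 352 and 467 CPM in knockout libraries and 358, 451 and 381 CPM in controls. Knockout libraries spanned the control range, and the log2 fold change was -0.07 (SE 0.17, interval -0.47 to 0.32). Its neighbour on chromosome 13, Slc6a18, had 709, 778 and 725 CPM in knockout libraries and 697, 989 and 696 CPM in controls, so that control 2 alone lay above the rest. The log2 fold change of Slc6a18 was -0.11 (SE 0.16) with control 2 and 0.08 without it. Both need collectrin at the membrane, whose gene, listed as Tmem27, was at 1191 ± 80.9 CPM in knockout libraries and 1116 ± 95.3 CPM in controls (SD, n = 3 each).

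Slc1a1, the carrier of glutamate and aspartate, had 316, 389 and 378 CPM in knockout libraries and 334, 297 and 352 CPM in controls. Its groups overlapped and its log2 fold change was 0.14 (SE 0.12). The proline carrier Slc6a20a and Slc6a20b, of closely related sequence, lie side by side on chromosome 9. Slc6a20b and Slc6a20a stood at 373 ± 27.1 and 28.6 ± 4.48 CPM in knockout libraries and at 389 ± 14.5 and 28.3 ± 5.69 CPM in controls (SD, n = 3 each). The log2 fold changes were -0.06 (SE 0.11) and 0.02 (SE 0.18), and it is not stated how reads were divided between this pair. Sacm1l, on the opposite strand of Slc6a20b, held 28.8% as many counts. The proline and glycine carrier Slc36a2 was too rare to test, with 1, 4 and 3 counts in knockout libraries and 14, 0 and 2 in controls.

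At the basolateral membrane, 4 of 5 tested carriers had fold changes below 0, with a median of -0.11, and none passed the test. Summed over the 5 genes, the level was 806, 773 and 815 CPM in knockout libraries and 866, 907 and 897 CPM in controls, or 798 ± 22.2 against 890 ± 21.2 CPM (SD, n = 3 each). Every knockout library lay below every control for this sum, also with RLE scaling and with plain CPM, although no single one of the 5 genes did so. How often sums of 5 genes taken from all tested genes separate the groups was not examined. The sum over the brush border genes did not separate the groups, at 3441 to 4213 CPM in knockout libraries and 3549 to 3962 CPM in controls. The summed proximal tubule markers, as given above, overlapped between groups. Over all tested genes 4.08% were lower in knockout libraries without overlap, and of the 12 markers 2 were. These were the endocytic receptor Lrp2 (2361 to 2780 CPM in knockout libraries and 2789 to 3104 CPM in controls) and the water channel Aqp1 (1053 to 1380 CPM in knockout libraries and 1485 to 1560 CPM in controls), and their part in the basolateral sum was not tested. In whole tissue, fewer cells of a type and less RNA per cell cannot be told apart.

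Slc7a8 (ENSMUSG00000022180, chromosome 14, 54722216 to 54781886), a light chain that exchanges neutral amino acids, had the largest fold change of the 5, with 134, 166 and 84.0 CPM in knockout libraries and 161, 194 and 159 CPM in controls. Knockout 3 was lowest and knockout 2 lay within the control range, and the log2 fold change was -0.42 (SE 0.23, interval -0.95 to 0.10; unadjusted p = 0.1, edgeR). Without knockout 3 it was -0.19, smaller than the -0.30 of Slc7a7 without that library. Its heavy chain Slc3a2 had 215, 196 and 205 CPM in knockout libraries and 234, 216 and 214 CPM in controls, a log2 fold change of -0.11 (SE 0.098). Slc7a7, the light chain that exports basic amino acids, had 182, 135 and 203 CPM in knockout libraries and 187, 176 and 221 CPM in controls, a log2 fold change of -0.17 (SE 0.17), and of -0.022 without knockout 2, its lowest library. The span of Slc7a7 overlaps that of Oxa1l on the opposite strand, a gene with 42.5% as many counts. Whether this affects the reads counted for Slc7a7 was not examined.

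Slc43a2, which lets neutral amino acids flow out along their gradient, stood at 203 ± 21.8 CPM in knockout libraries and 217 ± 8.87 CPM in controls (SD, n = 3 each; log2 fold change -0.09, SE 0.11). The glutamine carrier Slc38a3, which feeds ammonia production, had 85.7, 83.5 and 94.9 CPM in knockout libraries and 58.4, 106 and 94.2 CPM in controls. Controls spread wider than knockout libraries for this gene, and its log2 fold change was 0.03 (SE 0.20). The basolateral aromatic amino acid carrier Slc16a10, outside these families, was at a log2 fold change of 0.0093 (SE 0.19).

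**Figure D3:**
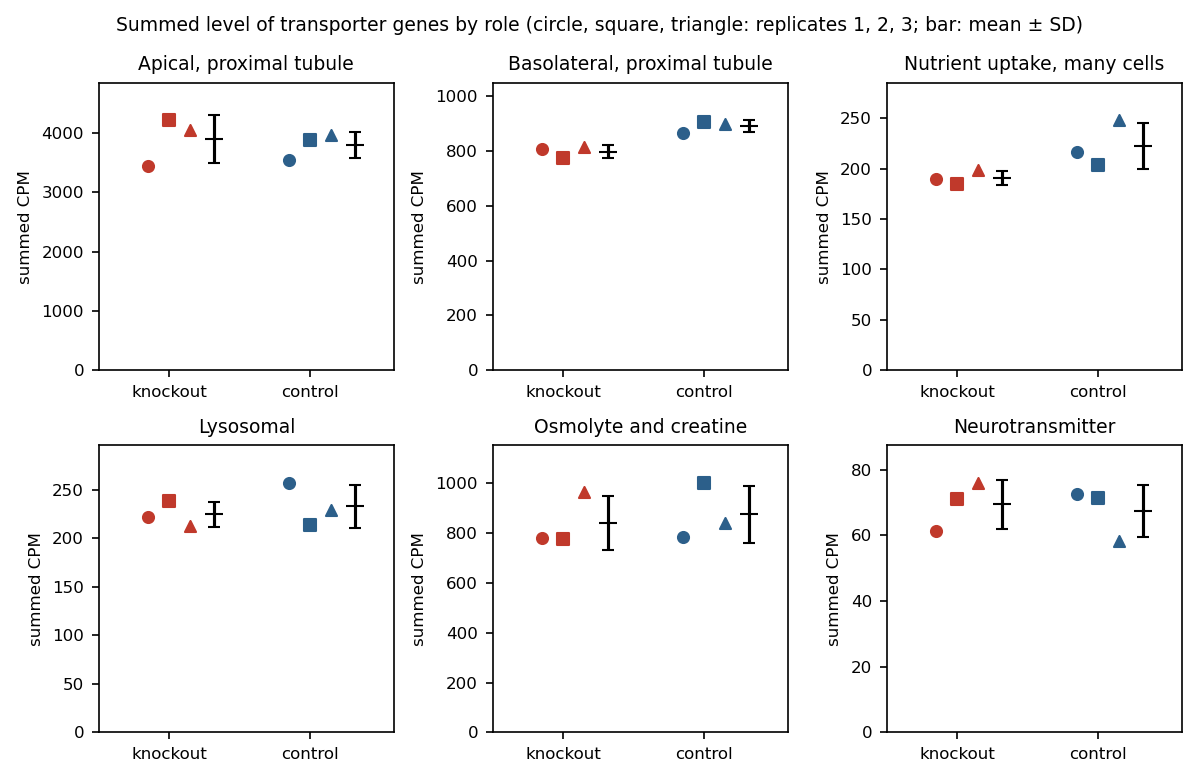
Summed CPM of the genes of each role list (vertical axis, from 0) in the 3 knockout libraries (red, left) and the 3 controls (blue, right), with mean ± SD beside the points. For the basolateral list all knockout libraries (773 to 815 CPM) lie below all controls (866 to 907 CPM), and likewise for nutrient uptake, whereas the other sums overlap.

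Carriers that many cell types use to take up nutrients had fold changes below 0 in 9 of 10 tested genes, with a median of -0.23, and none passed the test. Without control 2, 6 of 10 lay below 0, with a median of -0.22. Their summed level was 190, 185 and 198 CPM in knockout libraries and 217, 204 and 248 CPM in controls, with every knockout library below every control, also with RLE scaling and plain CPM. How often sums of other genes separate the groups in this way was not examined. The 5 fibroblast and pericyte markers summed to 70.1 to 98.3 CPM in knockout libraries and 99.1 to 128 CPM in controls, also without overlap. Of these 5, 4 had an edgeR unadjusted p under 0.05, against 3.23% of all tested genes, and none was called. The 7 macrophage markers were all above 0, with none called, and summed to 136.16 to 184.98 CPM in knockout libraries and 121.21 to 135.99 CPM in controls, higher in knockout libraries without overlap by a narrow margin. The part of these cells in the nutrient uptake sum was not tested. Slc38a2, a glutamine and alanine carrier that is induced when amino acids run short, had 77.4, 76.3 and 92.8 CPM in knockout libraries and 90.3, 76.2 and 127 CPM in controls, with control 3 highest (log2 fold change -0.25, SE 0.19; -0.017 without control 3). Slc1a4 and Slc1a5, exchangers of small neutral amino acids and glutamine, were at -0.18 (SE 0.27) and -0.05 (SE 0.16). Slc38a4, a carrier of small neutral amino acids, had 4.98, 5.30 and 7.15 CPM in knockout libraries and 6.07, 9.88 and 9.11 CPM in controls, and knockout 3 lay above control 1 (log2 fold change -0.52, SE 0.24). Slc7a6, a light chain related to Slc7a7, had 5.74, 5.68 and 4.20 CPM in knockout libraries and 6.13, 8.61 and 5.14 CPM in controls, which overlapped through control 3 (log2 fold change -0.35, SE 0.25; -0.12 without control 2). Slc7a5, the light chain for large neutral amino acids, was at -0.06 (SE 0.33). Its span overlaps that of Gm20388 on the opposite strand, which held 120.3% as many counts. Whether this affects the reads counted for Slc7a5 was not examined.

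Of the tested transporters, 2 had groups that did not overlap, Slc7a1 and Slc43a1, and both were lower in knockout libraries. Over all tested genes, groups did not overlap for 8.18%, and were lower in knockout libraries without overlap for 4.08%, so 2 of 43 lower genes is a share near the background. Slc7a1 (ENSMUSG00000041313, chromosome 5, 148327410 to 148399904), the cationic amino acid carrier that brings in arginine and lysine, had 10.84, 10.09 and 11.99 CPM in knockout libraries and 14.99, 17.74 and 12.38 CPM in controls. Control 3 lay just above the knockout libraries, and with plain CPM the groups overlapped. The log2 fold change was -0.45 (SE 0.17, interval -0.84 to -0.06), with an edgeR p of 0.028 unadjusted and 0.999 adjusted. Without control 2, its highest library, it was -0.32 (edgeR unadjusted p = 0.091). Leaving out knockout 1, knockout 2 or control 1 gave edgeR unadjusted p values of 0.063, 0.087 and 0.054, and leaving out knockout 3 or control 3 gave 0.035 and 0.010. The exact two-sided permutation p was 0.1, which 3 against 3 without overlap always gives, so it adds nothing to the lack of overlap.

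Slc43a1 (ENSMUSG00000027075, chromosome 2, 84838850 to 84863594), a carrier of branched-chain amino acids, was rare, with 13, 4 and 11 counts in knockout libraries and 16, 63 and 20 counts in controls. In CPM these were 0.753, 0.252 and 0.507 in knockout libraries and 0.971, 3.19 and 1.17 in controls, with control 2 far above the next. The log2 fold change was -1.81 (SE 0.59, interval -3.17 to -0.44), with an edgeR p of 0.016 unadjusted and 0.999 adjusted. Without control 2 it was -1.07 (edgeR unadjusted p = 0.079). The edgeR unadjusted p was 0.052 without knockout 2 and 0.051 with the replicate number as a block. It was 0.019, 0.044, 0.011 and 0.013 without knockout 1, knockout 3, control 1 and control 3. The exact permutation p was 0.1 here too, for the same reason.

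The promoters of these 2 genes are shown because their groups did not overlap, beside that of Slc7a11, the cystine-glutamate exchanger, which holds the amino acid response element. Transcription factor ATF4 binds this element when amino acids are scarce. Slc7a1 has a second RefSeq start further inside the gene, whose window is not shown and held no match. Each line gives the 250 bases before a RefSeq transcription start on GRCm38.p6, with matches to the core TGATGNAA or its reverse complement TTNCATCA in capitals.
Slc7a1, chr5:148399905-148400154, minus strand: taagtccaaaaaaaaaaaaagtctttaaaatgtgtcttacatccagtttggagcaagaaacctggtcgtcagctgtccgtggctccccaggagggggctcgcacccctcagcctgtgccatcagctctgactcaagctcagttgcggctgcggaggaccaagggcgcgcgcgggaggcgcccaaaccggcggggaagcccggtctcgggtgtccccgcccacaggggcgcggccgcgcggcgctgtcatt
Slc43a1, chr2:84840073-84840322, plus strand: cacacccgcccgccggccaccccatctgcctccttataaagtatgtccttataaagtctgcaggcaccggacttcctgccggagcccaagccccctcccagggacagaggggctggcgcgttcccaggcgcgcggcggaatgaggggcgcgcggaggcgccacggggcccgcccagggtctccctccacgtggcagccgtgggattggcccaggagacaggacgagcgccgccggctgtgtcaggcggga
Slc7a11, chr3:50443614-50443863, minus strand: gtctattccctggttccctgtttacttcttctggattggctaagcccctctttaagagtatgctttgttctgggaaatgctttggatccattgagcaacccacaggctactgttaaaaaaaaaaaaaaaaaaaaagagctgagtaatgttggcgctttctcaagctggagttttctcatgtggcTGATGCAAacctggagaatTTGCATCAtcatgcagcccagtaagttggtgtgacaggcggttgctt
The core was found 2 times before Slc7a11, starting 66 and 47 bases ahead of the start and pointing in opposite directions. It was in neither of the other windows, which says only that these letters are not in those 250 bases. Sequence after the start was not searched, and Slc7a1 is itself on the list of ATF4 targets used below. RefSeq promoters were at hand for 49 of the 67 genes (70 windows), and the core lay in 4 of these windows, those of Slc7a11, Slc7a7 and Slc6a21, against 3.45% of all 32851 windows of this length. The half-site GTTAAT of the tubule factor HNF1 (reverse ATTAAC), lay in 6 of the 70 windows, those of Slc6a13, Slc6a16, Slc6a20a, Slc36a1, Slc7a15 and Slc7a7, against 6.43% of all windows. None of the 70 windows held both motifs.

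Transporters known as ATF4 targets gave 6 of 7 tested genes below 0 and a median of -0.11, with Slc3a2, Slc38a2 and Slc1a5 the most abundant. Slc7a1, described above, is on this list and had its lowest log2 fold change, -0.45. Without control 2, 4 of 7 lay below 0. Their sum overlapped between groups with TMM and RLE scaling, but with plain CPM it was lower without overlap, at 389 to 426 CPM in knockout libraries and 435 to 452 CPM in controls. Slc7a11 itself had 4, 4 and 6 counts in knockout libraries and 4, 6 and 5 in controls, too few to test. Among 19 other genes of the amino acid response, 12 were below 0 and 7 above, with a median of -0.07, and none passed the test or had an unadjusted p under 0.05. Atf4 had 99.7, 110 and 112 CPM in knockout libraries and 161, 85.0 and 169 CPM in controls, so that control 2 was lowest of all. Asns, the asparagine synthetase gene and a classic target, stood at 4.23 ± 0.672 CPM in knockout libraries and 4.48 ± 0.536 CPM in controls (SD, n = 3 each). Control 3, the highest library for Atf4 and Slc38a2, was also highest for all 7 heat shock and immediate early genes examined. These summed to 286 to 599 CPM in knockout libraries, to 3218 CPM in control 3 and to 218 and 415 CPM in the other controls. Their part in the values of Slc38a2 and Atf4 was not tested.

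Of the carriers of lysosomes, all 4 tested genes were below 0, with a median of -0.04 and the lowest at -0.18. Without control 2, and likewise without knockout 3, 2 of 4 lay below 0. Slc36a1, which moves small amino acids out of lysosomes, had 166, 186 and 159 CPM in knockout libraries and 195, 153 and 176 CPM in controls, a log2 fold change of -0.04 (SE 0.12). Slc38a7, a glutamine carrier, was at -0.18 (SE 0.15). Slc38a9, the arginine sensor of the mTORC1 kinase complex, was at -0.04 (SE 0.14). Of 17 genes of the lysosomal sensing machinery around mTORC1, 9 were above 0 and 8 below, with a median of 0.00037. Slc38a10, an abundant member without a role list here, was also level, at 224 ± 7.96 CPM in knockout libraries and 225 ± 13.5 CPM in controls (SD, n = 3 each; log2 fold change -0.008, SE 0.099).

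Carriers of osmolytes and creatine varied between libraries more than between groups. Slc6a6, the taurine carrier, had 341, 341 and 502 CPM in knockout libraries and 353, 597 and 399 CPM in controls, with control 2 and knockout 3 highest (log2 fold change -0.19, SE 0.23; 0.07 without control 2). Slc6a8, the creatine carrier, stood at 317 ± 30.0 CPM in knockout libraries and 300.1 ± 24.6 CPM in controls (SD, n = 3 each; log2 fold change 0.08, SE 0.12). Slc6a13, a carrier of GABA, betaine and taurine, was at 0.06 (SE 0.14). Slc6a12, the betaine carrier that tonicity induces in the medulla, was rare, with 43, 22 and 31 counts in knockout libraries and 59, 107 and 28 counts in controls. Control 3 lay within the knockout range for Slc6a12, and the log2 fold change was -1.01 (SE 0.46, interval -2.06 to 0.05; edgeR unadjusted p = 0.059). Without control 2 the log2 fold change of Slc6a12 was -0.56. Of the neurotransmitter carriers, 5 of 13 were tested, 3 of them below 0 with all libraries and 0 without control 2, with Slc6a9 for glycine at 0.15 (SE 0.19), Slc6a17, a vesicular carrier of neurons, at -0.01 (SE 0.15) and the serotonin carrier Slc6a4 at -0.25 (SE 0.41; 0.39 without control 2).

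Slc7a12 was the transporter that varied most. Slc7a12 (ENSMUSG00000039710, chromosome 3, 14480697 to 14505830) belongs to the light chain family and is known to be higher in female than in male mouse kidney. It had 169, 212 and 196 counts in knockout libraries and 37, 1289 and 51 counts in controls. In CPM these were 9.79, 13.4 and 9.04 in knockout libraries and 2.25, 65.3 and 2.98 in controls. The 3 knockout libraries were alike and lay between controls 1 and 3 on the low side and control 2 on the high side. With all libraries the log2 fold change was -1.14 (SE 1.08, interval -3.63 to 1.35). Without control 2 it was 2.03, with an unadjusted p of 0.00011 and an adjusted p of 0.21 (edgeR), again short of the threshold. The excess in control 2 was seen in each of the 3 annotated transcripts, which had at most 108, 31.8 and 72.5 estimated counts in any knockout library, 720, 120 and 450 in control 2, and at most 34.2, 4.3 and 14.0 in the other controls.

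Some other genes known to differ between male and female mouse kidney also set control 2 apart. Of 5 genes higher in males, 4 were lowest in control 2. Acsm3, a medium-chain acyl-CoA synthetase, had 1093, 1620 and 1181 CPM in knockout libraries and 1437, 134 and 957 CPM in controls. The organic anion carrier Slco1a1 had 416, 856 and 551 CPM in knockout libraries and 599, 68.4 and 483 CPM in controls. Cyp4b1 was at 4108 to 4235 CPM in knockout libraries, 2159 CPM in control 2 and 4273 and 4885 CPM in the other controls. Kap, the fifth gene, was listed at 0 in all knockout libraries and had 8727 CPM in control 2 and 16435 and 16609 CPM in the other controls. Of 3 genes higher in females, Cyp2d12 and Slc22a29 were highest in control 2 and Cyp2a4 was not. Cyp2d12 was at 65.9 to 94.7 CPM in knockout libraries, 205 CPM in control 2 and 44.7 and 91.1 CPM in the other controls. Summed, the genes higher in males ran from 7333 to 8856 CPM in knockout libraries and from 12320 to 25108 CPM in controls, with Kap at 0 in knockout libraries. Those higher in females summed to 741 to 1042 CPM in knockout libraries and 652 to 1031 CPM in controls. Knockout 1 held the 1042 CPM and control 2 the 1031 CPM, so the female sum did not set control 2 apart. The part of these genes in the level of Slc7a12 was not tested.

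**Figure D4:**
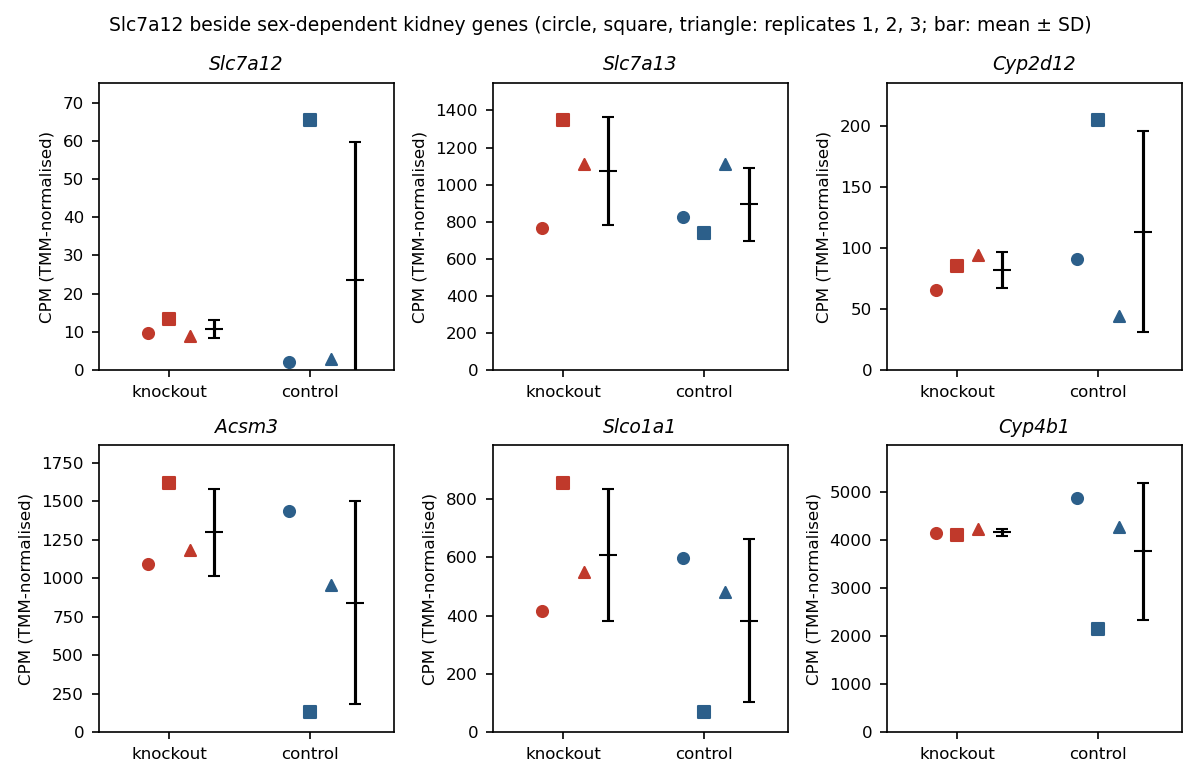
CPM (vertical axes, from 0) of Slc7a12, Slc7a13, Cyp2d12, Acsm3, Slco1a1 and Cyp4b1 in 3 knockout libraries (red, left) and 3 controls (blue, right), with mean ± SD beside the points; the SD bar of the Slc7a12 controls runs below 0 and is cut at the axis. Control 2 (blue square) is highest for Slc7a12 at 65.3 CPM and for Cyp2d12 at 205 CPM, and lowest for Acsm3, Slco1a1 and Cyp4b1.

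Control 2 was also the highest library for many other transporters. It held the highest level of 20 of the 43 tested genes, or 46.5%, while over all tested genes it was highest for 23.8%. Control 2 was also the lowest library for 10 of the 43, and for 3429 of all 15017 tested genes. Knockout 2 was the lowest library for 13 of the 43. The 20 genes highest in control 2 include Slc43a1, Slc7a1, Slc6a12, Slc38a4, Slc7a8, Slc6a6 and Slc6a18. Control 2 also had the highest sums of podocyte markers (391 to 418 CPM in knockout libraries, 504 CPM in control 2, 386 and 400 CPM in the other controls) and intercalated cell markers (148 to 164 CPM in knockout libraries, 225 CPM in control 2, 153 and 164 CPM in the other controls), and the lowest sum of proximal tubule markers. Of the 12 proximal tubule markers, 5 were lowest and 2 highest in control 2. Principal cell markers also had their highest sum in control 2, at 593 CPM (300 to 523 CPM in knockout libraries, 398 and 415 CPM in the other controls). The part of these cell types in the transporter levels was not tested.

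The share of the leading transcript varied little between libraries in some genes and widely in others. Of 32 transporter genes at 10 CPM or more, 27 have several annotated transcripts, and in 14 of these the leading transcript held over 80% of the gene's estimated counts in every library. It ranged by 10 percentage points or more over the 6 libraries in 13 of the 27. The share of the leading transcript did not overlap between groups for 4 of the 27 genes, against 10.1% of 8183 genes chosen in the same way, and no test was made. For Slc1a5, transcript ENSMUST00000127401 held 48.1% to 58.2% in knockout libraries and 62.4% to 70.0% in controls. For Slc6a20b, ENSMUST00000026273 held 44.6% to 49.1% in knockout libraries and 39.0% to 42.9% in controls. Shares for Slc1a1 and Slc7a6os were higher in knockout libraries by smaller margins between groups. Slc6a8 divided its counts most unevenly between libraries, with its leading transcript at 37.6% to 54.7% in knockout libraries and 28.5% to 59.5% in controls.

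Partners outside these families did not pass the test either. Of 8 accessory proteins, peptide carriers and brush border peptidases, 6 were above 0, with a median of 0.11. The peptide carrier Slc15a2, which recovers di- and tripeptides in the straight proximal tubule, had 92.8, 84.8 and 101 CPM in knockout libraries and 72.7, 69.6 and 73.3 CPM in controls. Every knockout library lay above every control under each of the 3 scalings, and the log2 fold change was 0.37 (SE 0.10; edgeR unadjusted p = 0.0061, adjusted p = 0.999). Of 10 tested mitochondrial and lysosomal amino acid carriers, 6 were above 0, with a median of 0.03. Slc25a22, a mitochondrial glutamate carrier, had 24.9, 66.8 and 47.9 CPM in knockout libraries and 27.0, 28.8 and 22.1 CPM in controls, with knockout 1 inside the control range (log2 fold change 0.84, SE 0.31).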

How the data were processed

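Whole kidney RNA of 6 mouse libraries was measured (3 per group, named by sample title). The authors deposited estimated counts per transcript, not normalized, beside FPKM values. Build GRCm38, HISAT2 2.0.1, Cuffdiff 2.2.1, cutadapt 1.9.1, FastQC 0.10.1 and bcl2fastq 2.17.1.14 are named, without role or order, per the submitters' processing notes. No source used here says which program made the counts. The deposited FPKM follow the spliced transcript length within 1% for 93.3% of 22765 values above 20 FPKM, so they allow levels of different genes to be compared.

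Estimated counts were summed per symbol and rounded. The main test was edgeR 4.0.16 in R 4.3.3 (quasi-likelihood, TMM, default filter with minimum count 10, two-sided, Benjamini-Hochberg adjustment over 15017 genes, threshold 0.05), tested on simulated data. Fold changes are log2 of knockout over control; the SE is the fold change over the square root of F; CPM are TMM-normalised. A count of 0 allows up to 3 counts, or 0.141 to 0.187 CPM, counting error only. Alternatives were RLE scaling, DESeq2 1.42.0, no filter or 1 CPM in 3 libraries, limma 3.58.1 on log2(FPKM + 1) and log2(FPKM + 0.1) (genes reaching FPKM 1 in 3 or more libraries), the replicate number as a block, and each library left out.

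Genes named were tested members of the proximal tubule lists; the 12 most abundant; the 6 of lowest p; those at 2 CPM or more whose groups do not overlap or with 1 library 3-fold from the median; and up to 3 per other list. Slc7a5, Slc36a2, Slc7a11 and Slc7a6os were named outside this rule, after their values were seen. Members, lists and motifs were chosen with earlier results of these data known. Promoter sequences are from RefSeq.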

Additional observations from a re-analysis of the deposited data

How the results depend on the processing

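The count of transporters called was 0 under every alternative run. Over all genes, the 2 calls became 5 without a filter, 14 with DESeq2 and 1 with limma on either pseudocount; leaving out a library gave 6 (without knockout 1) to 1 (without knockout 3, control 1 or control 3). The median of the transporters ran from -0.09 to 0.02 over the libraries left out, and that of the osmolyte and creatine list from -0.20 to 0.0321. Slc7a12 turned positive with the replicate block (0.41), with limma on log2(FPKM + 1) (0.29) and log2(FPKM + 0.1) (0.53) and without control 2, and ran from -1.68 to 2.03 over the libraries left out. Slc3a1 turned to -0.0026 with RLE scaling, -0.0008 with the filter of 1 CPM, -0.0009 with the block and -0.0025 with DESeq2. Other changes of sign came with a library left out, with ranges of -0.0316 to 0.0505 for Slc3a1, -0.19 to 0.0828 for Slc6a18, -0.26 to 0.0489 for Slc6a19, -0.0943 to 0.19 for Slc6a20a, -0.18 to 0.21 for Slc38a3, -0.0024 to 0.15 for Slc6a8, -0.40 to 0.0698 for Slc6a6, -0.0512 to 0.0358 for Slc38a10, -0.19 to 0.0664 for Slc1a5, -0.43 to 0.0171 for Slc1a4, -0.12 to 0.0498 for Slc36a1, -0.11 to 0.0722 for Slc38a9, -0.0021 to 0.18 for Slc6a13, -0.0896 to 0.10 for Slc6a17 and -0.54 to 0.39 for Slc6a4. The cause of these changes was not tested. Deviations from the group means correlated at 0.09, -0.091 and 0.116 between same-numbered libraries, and 2 of 3 knockout libraries correlated best with their own number. No reference was set for correlations of this size, so this check cannot decide whether replicate numbers pair the libraries. With the block, 0 transporters and 2 genes in all were called. Slc43a1 gave no value with the filter of 1 CPM or with limma, whose filters removed it, and DESeq2 gave no p for Slc7a12. Depth limits the rarest genes, where 3 counts are a large part of the level.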
